A study of Drosophila melanogaster with 3 samples.

Results

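The genes described here encode the translation initiation and elongation factors of Drosophila melanogaster. They were taken as the protein-coding genes whose symbol begins with eIF or eEF, and there were 52 of them among 13945 protein-coding genes on the main chromosome arms. Below they are called the factor genes.

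The protein mapped was Squeeze (sqz), a zinc finger transcription factor that acts in the choice of neuron identity in the embryo. ChIP-seq was used, in which DNA pulled down with 1 protein is sequenced. The 3 biological replicates formed 1 group, all of the strain sqz-GFP, a transgenic line with GFP joined to the C terminus of sqz. Each was a pool of male and female whole embryos aged 0 to 16 h, so a peak cannot be given to a cell type or an hour of development. There was no untagged line and no second genotype or treatment, so no contrast between conditions could be made. A label calls the libraries an input control, but their antibody and assay are given as sqz and ChIP-seq, and they were taken as ChIP libraries.

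Initiation factors bring the initiator tRNA, the small ribosomal subunit and the capped mRNA together and then admit the large subunit at the start codon. Elongation factors deliver the charged tRNAs and move the ribosome along the message. Most of these proteins are needed in nearly every growing cell, while several paralogs, among them eIF4E3 and eIF4G2, are known for roles in the male germ line. Fly promoters of translation genes are known for short sequences such as the DNA replication-related element (DRE), bound by the factor DREF, and the TCT initiator, a pyrimidine-rich start site.

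A gene was called marked when a summit of the authors' thresholded list of 6578 peaks lay within 1 kb of one of its transcription start sites (TSSs). Each library's list and the pooled list held 30000 peaks. The signal of a peak is the strength given by the authors. No source states the scale, and signals therefore only rank peaks within 1 list, with rank 1 the strongest. The tagged gene itself ranked 4, 1 and 1 in replicates 1, 2 and 3. The lists give no read counts, so depth is unknown for every library. The 95% Wilson intervals given with shares cover counting error only.

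Of the 52 factor genes 14 were marked (26.9%, 16.8 to 40.3), against 20.5% of all protein-coding genes, so the share lay near the background. The marks were spread unevenly over the roles. Elongation factor genes had 4 of 8 (50%, 21.5 to 78.5). The eIF4 genes, whose products bind the cap and the mRNA, had 5 of 13 (38.5%, 17.7 to 64.5). Factors of start codon recognition and subunit joining had 3 of 10 (30%, 10.8 to 60.3). The eIF2B genes, which encode the exchange factor that recharges eIF2 with GTP, had 1 of 5 (20%, 3.62 to 62.4). The eIF3 genes, which encode the scaffold on the small subunit, had 1 of 16 (6.25%, 1.11 to 28.3). The groups are small, and the differences between them were not tested.

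**Figure D1:**
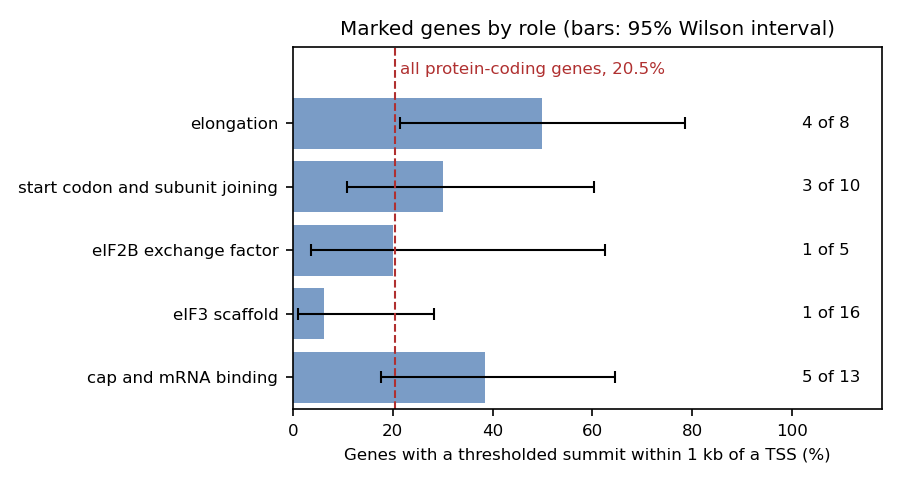
Percentage of the factor genes of each role that were marked (summit of the thresholded list at most 1 kb from a TSS); error bars are 95% Wilson intervals and the dashed line is the 20.5% of all protein-coding genes. Elongation genes stand highest with 4 of 8 and eIF3 genes lowest with 1 of 16, and the intervals of these small groups are wide.

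The number of start sites moved with the mark. Of the factor genes 61.5% had 1 TSS, against 73.5% of all genes. Among those with 1 TSS 5 of 32 were marked (15.6%, against 13.9% of all such genes). With 2 or more TSSs 9 of 20 were marked (45%, against 38.8%).

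The strongest mark at a factor gene stood beside eIF2Bbeta, yet it lay at the promoter of its neighbour. Its summit was at position 2703895 on chromosome X (dm6), with a signal of 2619.8 and rank 3 of the thresholded list. It lay 676 bp upstream of eIF2Bbeta (FBgn0024996, 2704571 to 2706217, plus strand) and 43 bp upstream of Ugalt, a UDP-galactose transporter gene read the other way. The matching summits ranked 1, 9 and 5 in replicates 1, 2 and 3, with signals of 953, 853 and 839. All 3 libraries thus held this peak among their 9 strongest, and no summit nearer to eIF2Bbeta was listed within 1 kb in any of them.

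The summits at eIF4EHP and eIF1 also lay nearer to another gene. eIF4EHP (FBgn0053100, 3R, 24063077 to 24108960, minus strand) encodes a cap-binding protein that represses translation of chosen mRNAs, among them that of the body axis gene caudal in the early embryo. Its summit (3R, 24109170) lay 210 bp upstream of its TSS and 166 bp upstream of the divergent CG18428, with a signal of 1363 and rank 66. The ranks in replicates 1, 2 and 3 were 31, 100 and 135. Between RpL28, a ribosomal protein gene, and eIF1, whose product helps the small subunit scan for the start codon, 2 summits were listed. The stronger (3L, 3223022, signal 517, rank 910, with 254 in replicate 1 and 1121 in replicate 3) lay 62 bp upstream of RpL28 and 319 bp upstream of eIF1 (FBgn0035423, 3223341 to 3224650, plus strand). The weaker lay 119 bp upstream of eIF1, with a signal of 465. Replicate 2 instead listed 1 strong summit here, 36 bp upstream of eIF1, with rank 1180. In all, 3 of the 14 marking summits were nearer to the TSS of another gene, against 24.5% of all marked genes. The summit at eIF4G2 was at equal distance from a start site shared with CG33111.

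Among the elongation genes eEF1gamma had the strongest mark, and it sat at the core promoter. The gene (FBgn0029176, 3R, 29220172 to 29222109, plus strand) encodes a subunit of the complex that reloads eEF1A with GTP. Its summit at 29220130 lay 42 bp upstream of the TSS, with a signal of 925 and rank 217. Matching summits ranked 116, 404 and 243 in replicates 1, 2 and 3, within 9 bp of it in each. The nearest TSS of another gene, Cisd2, stood 3164 bp from those of eEF1gamma.

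The sequences under 4 of these strong summits show how unlike they are, and are given from the Release 6 assembly (dm6). In the first 2, capitals mark TATCGATA, the core of the DRE; in the eIF4EHP window they mark TATAAA on either strand; the Ugalt window held neither word. The eEF1gamma window runs from 100 bases before to 10 bases after the TSS on the gene's strand. The others are centred on the summit, on the plus strand.
eEF1gamma promoter, chr3R:29220072-29220182, plus strand: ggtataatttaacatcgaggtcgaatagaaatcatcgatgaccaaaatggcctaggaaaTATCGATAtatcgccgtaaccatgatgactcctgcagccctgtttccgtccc
eIF1 and RpL28 summit, chr3L:3222972-3223072, plus strand: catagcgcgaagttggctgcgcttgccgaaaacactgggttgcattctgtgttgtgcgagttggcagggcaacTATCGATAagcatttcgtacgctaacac
eIF4EHP summit, chr3R:24109120-24109220, plus strand: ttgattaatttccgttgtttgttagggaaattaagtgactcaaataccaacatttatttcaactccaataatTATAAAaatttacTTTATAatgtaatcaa
eIF2Bbeta and Ugalt summit, chrX:2703855-2703935, plus strand: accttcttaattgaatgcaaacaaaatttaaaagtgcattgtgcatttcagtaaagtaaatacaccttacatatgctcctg

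In the eEF1gamma promoter the word began 41 bases before the TSS, next to the summit. In the window between RpL28 and eIF1 it began 23 bases after the summit. Both strands were searched for every word here.

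eIF6 encodes a factor that keeps the large subunit from joining too early. Its mark was the strongest whose nearest TSS was that of a factor gene, with a signal of 1382 and rank 63. The summit (2R, 23850333) lay 32 bp upstream of the eIF6 TSS (FBgn0034915, 23849246 to 23850301, minus strand), inside an intron of ytr. Ranks were 40, 74 and 84 in replicates 1, 2 and 3, so the libraries placed it alike.

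eIF4H1 is a counterpart of mammalian eIF4H, a helper of the helicase eIF4A. It carried 2 thresholded summits, both between its 2 start sites. The stronger (X, 16448811, signal 903, rank 232) lay in an intron, 146 bp downstream of the first TSS (FBgn0262734, 16448665 to 16454972, plus strand). It ranked 343, 282 and 171 in replicates 1, 2 and 3. The other had a signal of 619.9 and lay 137 bp before the second TSS. The paralog eIF4H2 had no summit within 1 kb in any list.

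eIF3h was the single marked subunit gene of eIF3. Its summit (2L, 5052790, signal 768, rank 350) lay 10 bp upstream of a TSS of eIF3h (FBgn0022023, 5051193 to 5053094, minus strand) and 53 bp upstream of senju, a divergent gene. Ranks of 480, 362 and 375 in replicates 1, 2 and 3 were within a narrow range. Of the other 15 subunit genes none had a pooled summit within 1 kb.

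eIF4G2 encodes a paralog of the scaffold eIF4G1 that is known for its role in spermatogenesis. Its strongest summit (3R, 23819029, signal 624, rank 589) lay 208 bp downstream of the TSS, in the 5' UTR (FBgn0260634, 23808285 to 23819237, minus strand). Ranks were 606, 547 and 677 in replicates 1, 2 and 3. The broadly used eIF4G1 lies on chromosome 4, where the thresholded list has 27 peaks, and had no summit within 1 kb in any list.

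eIF4A encodes the helicase that unwinds the mRNA leader. Its 4 thresholded summits within 1 kb were the most at any factor gene, at 951 and 157 bp upstream and 46 and 169 bp downstream of the nearest of its start sites. In that order their signals were 173, 341, 176 and 393. The summit 951 bp upstream lay past the TSS of the divergent chic, 746 bp from a TSS of eIF4A, and so nearer to chic. The strongest, at 2L, 5981933, ranked 1602 (FBgn0001942, 5981764 to 5985909, plus strand). Summits within 100 bp ranked 1537 and 2302 in replicates 1 and 2. In replicate 3 the nearest summit was 195 bp away and ranked 874, so the libraries placed the strongest summit at different points of the region.

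The other marks were weaker. eEF2, the factor that moves the ribosome along, had a signal of 278 and rank 2964, with the summit 18 bp downstream of a TSS (2L, 21682146; FBgn0000559, 21677913 to 21682164, minus strand). Its ranks were 5358, 2131 and 3753 in replicates 1, 2 and 3, all within the strongest 6578 but far apart. A stronger thresholded summit, with a signal of 998 and rank 176, stood outside the window, 1714 bp upstream. It ranked 724, 103 and 161 in the libraries. The TSS of the divergent nolo stood 1942 bp from a TSS of eEF2, so this stronger summit lay nearer to nolo. eEF5, the fly gene for the factor also known as eIF5A, had a signal of 270 and rank 3121, with ranks of 4123, 3581 and 3073 in the replicates. Its summit (2R, 24057836) lay 17 bp upstream of a TSS (FBgn0285952, 24057798 to 24059483, plus strand), in the 5' UTR of a longer transcript. eIF2beta, a subunit of the factor that carries the initiator tRNA, had a signal of 266 and rank 3209, with ranks of 3141, 2806 and 5741. Its summit (3L, 12527010) lay 279 bp upstream (FBgn0004926, 12525093 to 12526731, minus strand). A stronger one, with a signal of 509, stood 2492 bp downstream, past the end of the gene.

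The weakest 2 marks lay inside their genes, and each had 1 library whose matching summit fell outside its strongest 6578. eEF1alpha1 encodes the main carrier of charged tRNAs. Its summit (2R, 11892656; FBgn0284245, 11891135 to 11895762, plus strand) was in an intron, 534 bp downstream of a TSS, with a signal of 227 and rank 4177. The matching summits ranked 3591, 3530 and 6768, the last just past the 6578 used here as the strongest. A stronger thresholded summit, with a signal of 575, stood 1199 bp upstream and so outside the window. It lay past the TSS of the divergent ERp60, 156 bp from a TSS of eEF1alpha1, and so nearer to ERp60. eIF4E1 encodes the main cap-binding protein. Its summit in the 5' UTR (3L, 9401587; FBgn0015218, 9399618 to 9402460, minus strand), 218 bp downstream of a TSS, had a signal of 198 and rank 5092. Its ranks were 5721, 5114 and 18866, with replicate 3 far below the others. The strongest summit of replicate 3 at this gene, of rank 3743, stood 138 bp downstream of a TSS. Both genes lost their mark when only the strongest 3289 thresholded peaks were kept, and likewise without replicate 1 or replicate 2.

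**Figure D2:**
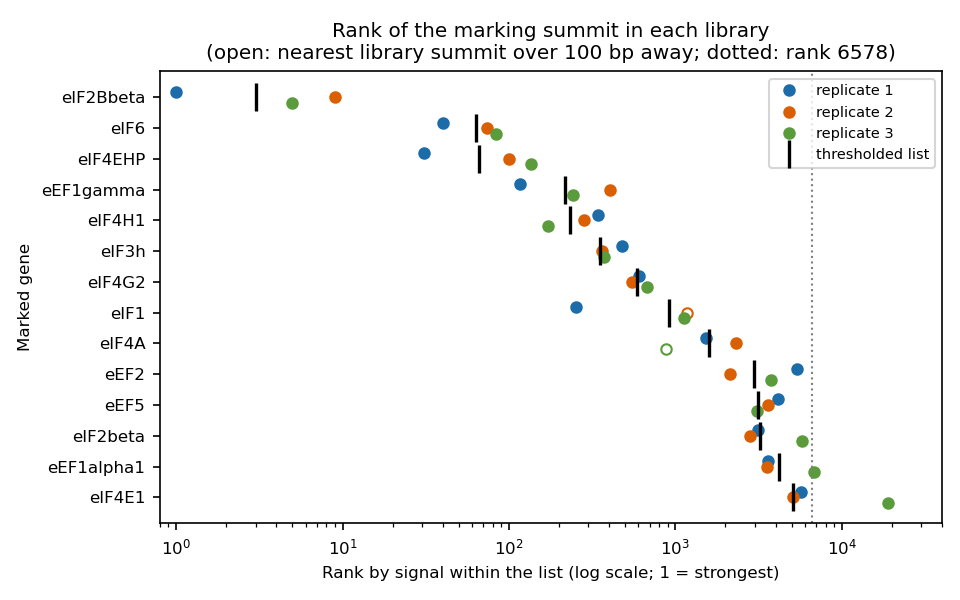
Rank by signal of the marking summit of each of the 14 marked genes (log axis, 1 is the strongest); points are the nearest summits in the 3 libraries, open where over 100 bp away, and bars are the thresholded list. The 3 libraries lie close together for most genes, while eIF4E1 falls to rank 18866 in replicate 3 and eIF1 and eIF4A have 1 open point each.

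Most marking summits were met in every library. Of the 14, 10 had a summit within 100 bp among the strongest 6578 of each library (71.4%, against 59.9% of all marked genes), and 12 in the full list of each (85.7%, against 80.8%). All 14 were met among the strongest of 2 or more libraries, against 87.2% of all marked genes. These shares lay near those of all marked genes. The thresholded list derives from these libraries, so this is not independent of it. The median signal of the 14 marking summits was 571, against 332 over all marked genes, with a range from 198 to 2619.8.

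By annotation the marking summits lay in 5' UTRs in 5 genes, in introns in 4 and between genes in 5; none lay in a coding exon. The median distance to the gene's own TSS was 188.5 bp, against 192 bp over all 2860 marked genes. Within 50 bp of the TSS were 5 of 14 (35.7%), against 17.0% of all marked genes. Those 5 were eEF1gamma, eEF2, eEF5, eIF3h and eIF6. Counting every thresholded summit, 7 of the 52 genes had 1 within 100 bp of a TSS (13.5%), against 7.74% of all genes.

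**Figure D3:**
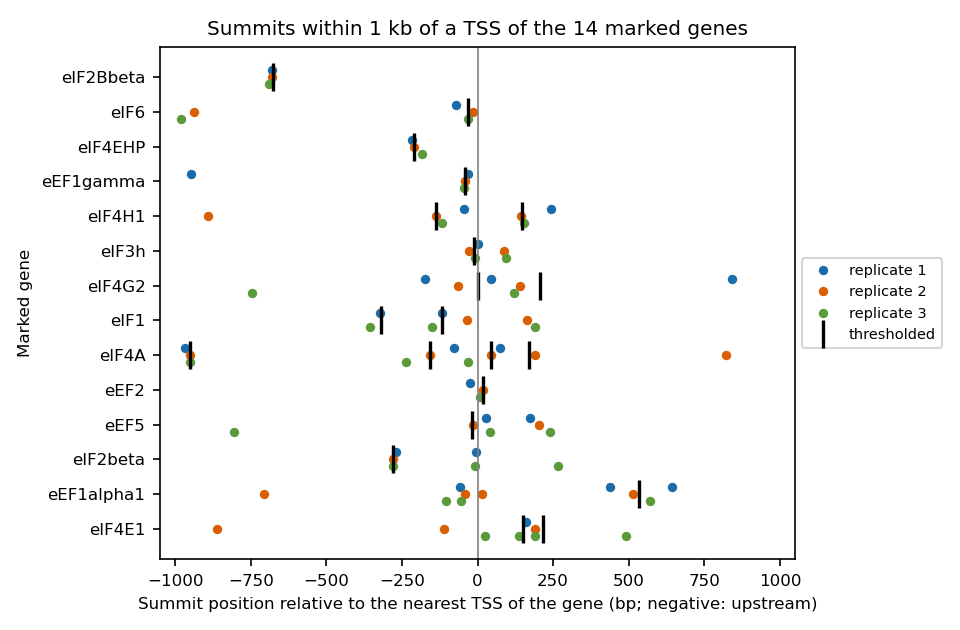
Position in bp of every summit within 1 kb of a TSS of the 14 marked genes, relative to the nearest TSS of the gene; points are the 3 libraries and bars the thresholded list. The marking summits of eIF2Bbeta, eIF4EHP, eEF1gamma and eIF2beta nearly coincide across libraries, whereas at eIF4A the library summits are spread on both sides of a TSS.

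The other 38 genes were unmarked. Of these 3 had a weaker pooled summit within 1 kb, namely eEF1beta (rank 12364), eEF1delta (rank 18832) and eIF4E4 (rank 28970). Together 17 of the 52 had a pooled summit (32.7%), below the 37.3% of all genes, and few factor genes had a pooled summit beyond the thresholded list.

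Several unmarked genes had a thresholded summit just outside the window. It lay 1285 bp downstream of the TSS at eEF1beta (signal 206), 1314 bp upstream at eIF3d1 (551), 1818 bp upstream at eIF2alpha (903) and 1845 bp upstream at eEF1delta (235). The eIF2alpha summit is the one that marks eIF4H1. At eEF1beta the summit lay past the end of the gene. ova, read the other way, had a TSS 815 bp from that of eEF1delta. A window of 2 kb marked 18 of the 52 factor genes (34.6%), against 25.2% of all genes. With 1 kb these shares were 26.9% and 20.5%. Of the marking summits the farthest were those of eIF2Bbeta at 676 bp and eEF1alpha1 at 534 bp. Within its gene body eIF5B, whose product joins the subunits, held 5 thresholded summits. The strongest had a signal of 284 and lay in an intron, 21875 bp downstream of a TSS.

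eEF1beta differed between the lists. Each library listed a strong summit upstream of it, at 517, 564 and 576 bp before the TSS in replicates 1, 2 and 3. All 3 lay nearer to Psi, a divergent gene, at 9, 56 and 68 bp downstream of its TSS. These ranked 5480, 2527 and 2152, all among the strongest 6578. The pooled list held no summit within 100 bp of them, and its nearest, 397 bp upstream of eEF1beta, had a signal of 103. Such cases were rare. Of 3137 strong replicate 2 summits met among the strongest of both other libraries, 29 (0.924%) had no pooled summit within 100 bp.

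The library lists differed in how many factor genes they reached. A summit lay within 1 kb of 32 of the 52 genes in replicate 1 (61.5%, 48.0 to 73.5; 49.3% of all genes). There were 18 in replicate 2 (34.6%; 37.8% of all genes) and 20 in replicate 3 (38.5%; 39.0% of all genes). In replicate 1, 13 genes had a summit that neither other library listed within 1 kb (25%, 15.2 to 38.2), against 12.5% of all genes. In replicates 2 and 3 alone there was 1 each, eIF2alpha and eIF4E5, against 2.12% and 2.32%. Replicate 1 thus reached more promoters of all kinds, and its share of factor genes stood above that background; no test of the difference was run.

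The 13 genes were eIF1A, eIF2A, eIF2D, eIF2Bdelta, eIF2Bgamma, eIF3c, eIF3f2, eIF3k, eIF3l, eIF3m, eIF4E3, eIF4E4 and eIF4E6. Among the strongest 6578 of replicate 1 were 5 of them (38.5%, against 33.3% of all genes met there alone). eIF3k ranked 2138, with its summit 113 bp downstream of the TSS. eIF2Bdelta ranked 2691, with its summit 22 bp downstream. eIF3m (rank 5329), eIF2D (5349) and eIF3c (5484) lay 136, 36 and 80 bp upstream. The others ranked from 6922 at eIF1A to 29429 at eIF4E6, near the end of the list. Over all 13 the median rank was 17050, weaker than the 12049 of all genes met in replicate 1 alone. The median distance of the 13 summits from a TSS was 113 bp, against 200 bp (200.0) for all genes met in replicate 1 alone.

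With the TSS window set to 100 bp replicate 1 again reached the most factor genes. Replicate 1 had 19 of the 52 genes (36.5%, 24.8 to 50.1, against 19.7% of all genes). Replicates 2 and 3 had 10 each (19.2%, 10.8 to 31.9), near the 15.4% and 16.1% of all genes. The value of replicate 1 rests on that library alone.

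Support from all 3 full lists was found at 17 factor genes (32.7%), against 30.2% of all genes. These were the 14 marked genes with eEF1beta, eEF1delta and eIF5. At eIF5, whose product triggers GTP hydrolysis by eIF2, the strongest summits of the 3 libraries lay 800 and 129 bp upstream and 219 bp downstream of a TSS that eIF5 shares with CG46312, and the pooled list held none. There was support from 2 libraries at eIF3b and eEFSec only (3.85%, against 9.39%). Of the 52, 18 had no summit within 1 kb in any library (34.6%, against 43.5%). In this group were 9 of the 16 eIF3 genes, among them the core subunit gene eIF3a and the gene eIF3e. It also held eEF1alpha2, eIF2Balpha, eIF2Bepsilon, eIF2gamma, eIF5B, eIF4B, eIF4E7, eIF4G1 and eIF4H2.

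**Figure D4:**
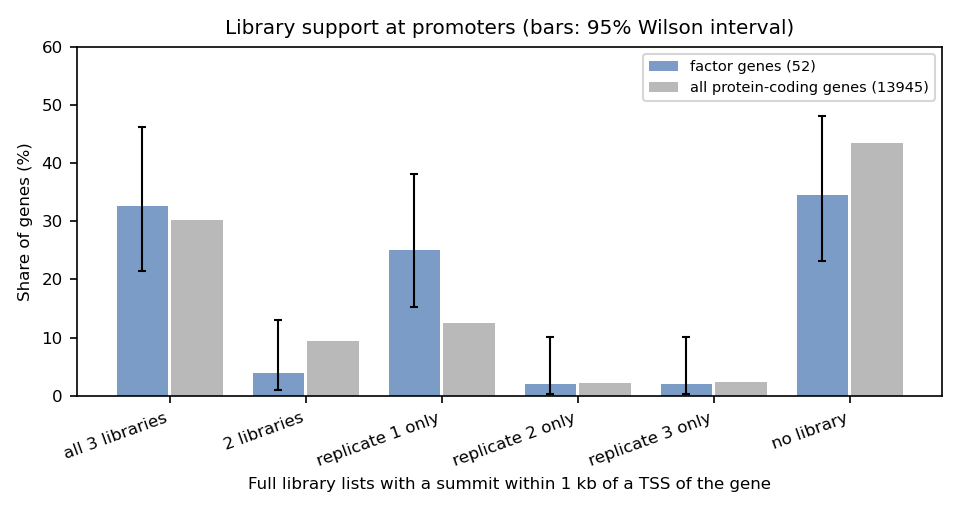
Percentage of the 52 factor genes and of all 13945 protein-coding genes, in percent, by the full library lists that have a summit within 1 kb of a TSS; error bars are 95% Wilson intervals. The factor genes are at 25% against 12.5% for replicate 1 only and close to all genes for all 3 libraries, at 32.7% against 30.2%.

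**Figure D5:**
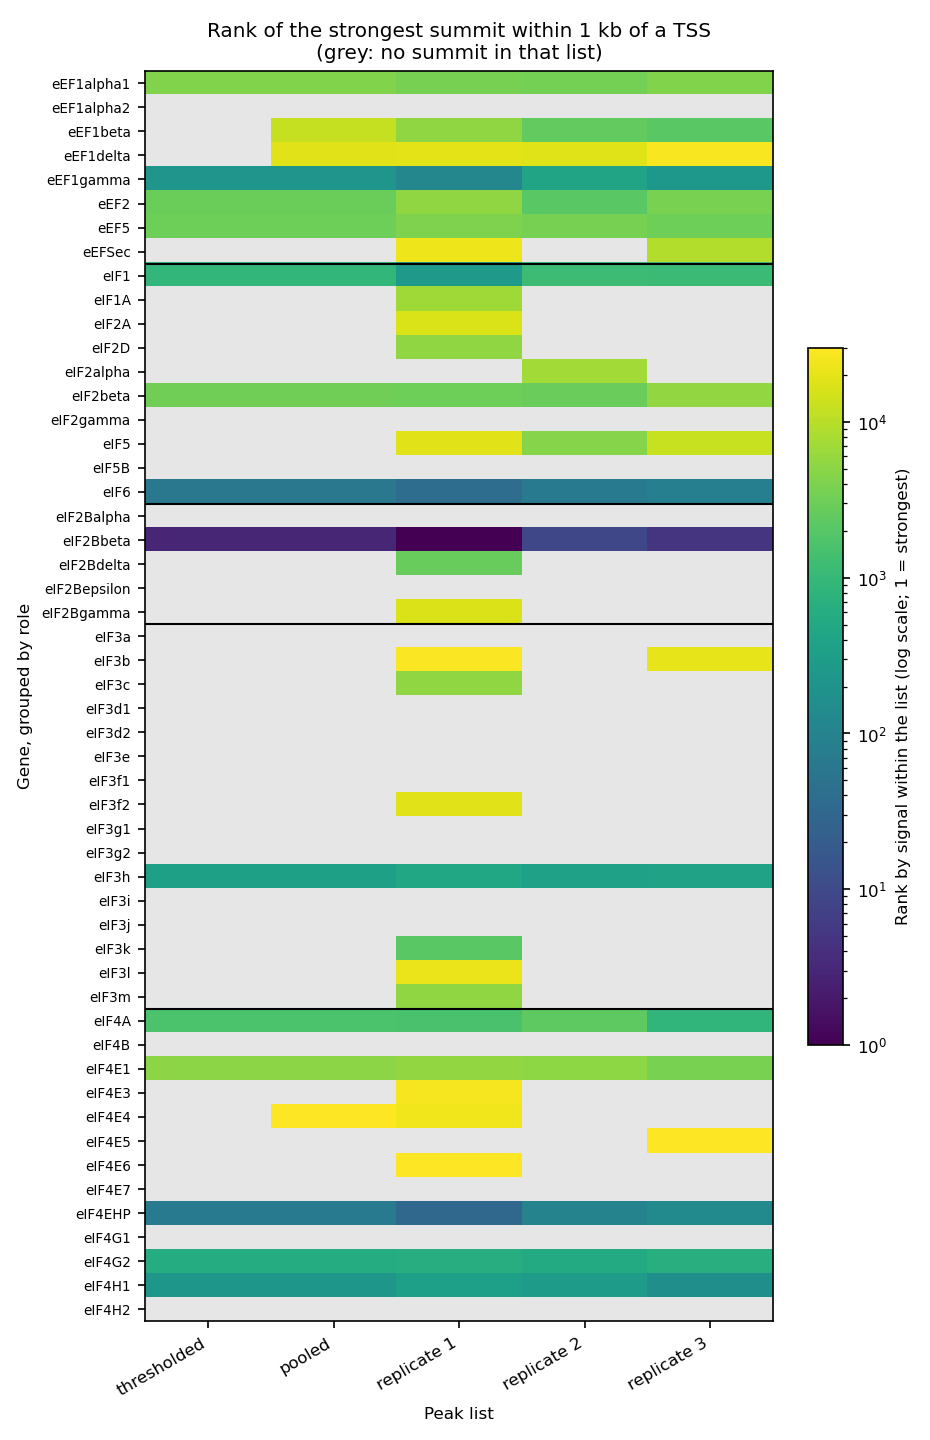
Rank of the best-ranked promoter summit (at most 1 kb from a TSS) for each of the 52 factor genes (rows, grouped by role) in the 5 peak lists (columns), on a log colour scale; grey means no summit. The marked genes are coloured across all 5 columns, and 12 genes are coloured in the replicate 1 column alone.

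Within families of paralogs or of subunits of 1 complex, some genes were marked and others not. These sets are small, and 20.5% of all protein-coding genes were marked. Of the 6 eIF4E genes other than eIF4EHP, eIF4E1 alone was marked; eIF4E3, eIF4E4, eIF4E5 and eIF4E6 had a summit in 1 library each, with ranks from 23934 to 29429. Of 3 genes for the subunits of eIF2, eIF2beta was marked. eIF2gamma, which shares a TSS with the histone methyltransferase gene Su(var)3-9, had no summit within 1 kb in any list. Of 5 eEF1 genes 2 were marked, eEF1gamma and eEF1alpha1, and eEF1alpha2 was not reached by any library.

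The DRE word TATCGATA was more frequent in the promoters of factor genes than in those of all genes. From 250 bp before to 50 bp after any TSS it was found in 15 of 52 genes (28.8%), against 10.2% of all 13945. It stood in 4 of the 14 marked and in 11 of the 38 unmarked promoters, so its share was alike in both. Within 100 bp of the marking summits it was found at 3 of 14, eEF1gamma, eIF1 and eIF6, against 3.84% of the 3075 thresholded summits within 1 kb of a TSS. GGTCACAC, the core of promoter motif 1, was in 9 of 52 promoters (17.3%, against 8.71%). The ribosomal protein genes had like shares, with TATCGATA in 28 of 93 (30.1%) and GGTCACAC in 16 of 93 (17.2%). GGTCACAC was found at none of the 14 marking summits (3.74% of all). Factor genes more often had 2 or more start sites, as given above, and a gene with several promoters has more chances to hold a word.

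The E-box word CAGCTG was less frequent in factor gene promoters, in 9.62% against 22.3% of all genes. CACGTG, also an E-box word, was more frequent, in 9.62% against 5.34%. GAGAG was in 28.8% of factor gene promoters (36.4% of all genes) and TATAAA in 46.2% (51.3%). A run of adenines, AAAAAA, was in 65.4% (56.5%). TATAAA stood in 10 of the 14 marked and in 14 of the 38 unmarked promoters, and AAAAAA in 12 and 22. Of the factor genes with 2 or more TSSs 9 of 20 were marked, and of those with 1 TSS 5 of 32. How far the number of start sites bears on these splits was not tested. At the 14 marking summits AAAAAA was found at 8 (57.1%, against 66.9%), TATAAA at 4 (28.6%, against 28.5%), GAGAG at 3 (21.4%, against 33.9%) and CAGCTG and CACGTG at 1 each (7.14%, against 10.6% and 2.70%). These matches describe letters in a window and do not show binding.

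The core of a TCT initiator was sought on the gene's strand within 10 bases of a TSS, as CTTTT or CTTTC. It was found in 7 factor genes (13.5%, against 7.85% of all genes), of which eIF4A, eEF2 and eEF5 were marked. Among the ribosomal protein genes 64 of 93 had it (68.8%). The start sites of eIF4A and eEF2 are shown because they hold this core, in capitals, 10 bases before to 10 bases after the TSS on the gene's strand. The marking summit of eIF4A lay 169 bp downstream of the TSS shown and that of eEF2 30 bp upstream.
eIF4A start site, chr2L:5981754-5981774, plus strand: gcaagatggagcctCTTTTgc
eEF2 start site, chr2L:21682106-21682126, minus strand: tgcagcgcctcgctCTTTCct

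Other translation genes were marked about as often. From a list of 34 regulators, release factors and organelle factors 33 were matched in the annotation, and 10 were marked (30.3%, 17.4 to 47.3). The strongest were larp, an RNA-binding protein gene (signal 2469, rank 5), and Lk6, a kinase gene whose product acts on eIF4E (1748, rank 28). NAT1, an eIF4G relative, had 574, and Thor, the 4E-BP repressor of eIF4E1, had 469 with its summit 1 bp upstream of the TSS. Paip2, which acts on the poly(A)-binding protein, had 439 and mEFG1, a mitochondrial elongation factor gene, 420. Unmarked genes of the list numbered 23, among them mTor, S6k, raptor and eRF1. Cytosolic ribosomal protein genes had 61 of 93 (65.6%, 55.5 to 74.5) and aminoacyl tRNA synthetase genes 8 of 35 (22.9%, 12.1 to 39.0). The factor genes, at 26.9%, stood near the synthetases; the differences between these lists were not tested.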

How the data were processed

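ChIP DNA from 3 libraries was sonicated to 200 to 800 bp, per the labels. Peaks on dm6 came from each library and from the libraries together against 1 control alignment, per the file headers, and a thresholded list was derived by the irreproducible discovery rate. Which aligner, caller and threshold were used is not given in the sources used here. Peak signal values are the authors' own, as deposited, and served only for ranks within a list; the deposited −log10 q column was not used. Depth is unknown. All 6578 thresholded peaks were the strongest pooled peaks. A shared control means that an error in it enters every list.

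Positions count from 1. Genes came from Ensembl release 115 (BDGP 6.54) and sequence from the Release 6 assembly of the same build. Gene assignment, matching and word search were run in Python 3.11.15 with pandas 2.3.3 and tested on planted peaks and words. No test was run: there is 1 group, and the members and lists were chosen with earlier results of these data known. Every marked factor gene is named, and of the other translation genes the 6 strongest. Genes named for a summit outside the window, in replicate 1 alone or beside a neighbour were picked with their values in view. The alternatives changed the peak set, replicates, TSS window, assignment, annotation, match distance and word window. Splits by start sites, by the 100 bp window and by library support, and the word CTTTC, were added after the data were seen. Tor was matched as mTor; mEFG2 was not matched.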

Additional observations from a re-analysis of the deposited data

How the results depend on the processing

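The count of 14 marked factor genes stayed between 11 and 14 in smaller peak sets, while that of all genes fell further. The strongest 3289 peaks left 12 and 1894, and peaks met in all 3 libraries 11 (with 3 eIF4 genes) and 1772. Leaving out 1 replicate gave 11 to 14 and 1991 to 2114, with 3 to 5 eIF4 genes. eEF1alpha1 and eIF4E1 were lost without replicate 1 or 2, and eIF4A without replicate 2. A TSS window of 500 bp left 12 (23.1%, against 17.3% of all genes) and no eIF2B gene (0). A window of 2 kb gave 18 with 2 eIF3 genes (34.6%, against 25.2%), and gene bodies gave 17 (32.7%, against 25.9%). Only summits nearest to the gene's own TSS left 12 (23.1%, against 16.2%), again with 0 eIF2B genes. RefSeq gave 14 (26.9%, against 20.4%). Limited to genes with 1 TSS there were 5 (15.6%, against 13.9%), and with a summit within 100 bp 7 (13.5%, against 7.74%).

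The median distance of 188.5 bp went to 157.5 with the strongest 3289 peaks, 119 in peaks met in all 3 libraries and 132.5 to 157.5 without 1 replicate, more than the SD of 19.4 bp between libraries. Unmarked genes with a weaker summit, 3 in the pooled list, were 5 with a window of 2 kb, 18 in the list of replicate 1 and 6 in that of replicate 3. With 50 bp around the summit GAGAG fell to 7.14%, AAAAAA to 21.4%, TATAAA to 14.3%, and CAGCTG and CACGTG to 0. With 150 bp GAGAG was at 35.7%, TATAAA at 50% and CACGTG at 21.4%. TATCGATA kept 21.4% in both. Shares over all summits are not given for 50 and 150 bp, so these values have no background beside them. The TCT core CTTTT was at 3 genes and CTTTC at 5. The causes were not tested, apart from fewer peaks or a narrower window. Depth is unknown, so an unmarked gene is one without a listed peak.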
